A study of Homo sapiens with 12 samples.

Results

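Ubiquitin ligase genes of the cullin, F-box and anaphase-promoting complex (APC/C) families were followed in Kelly and IMR-32 neuroblastoma cells after 6 h of THZ531, a covalent inhibitor of the kinases CDK12 and CDK13. The list held 43 genes by name, RNF111 and USP38 among them as ubiquitin enzymes outside these families, and 42 of them had a probe set with a single gene symbol among the 18244 genes measured. UBE2M, an E2 enzyme for NEDD8, was not analysed here. The 42 genes had 139 probe sets in all, and each gene is represented by its brightest one, taken on the mean of the 12 arrays. RNA was hybridised to 12 PrimeView arrays. The 6 groups had 2 arrays each: Kelly cells in DMSO, in 100 nM THZ531 and in 400 nM THZ531, and IMR-32 cells in the same 3 conditions. Kelly and IMR-32 are established human lines with amplified MYCN, the labels call the 2 arrays of a group biological duplicates, and nothing says whether these came from separate cultures on separate days. Values are linear intensities that the authors scaled with ERCC spike-in RNAs, and every change below is a difference of log2 intensities with its SE.

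A cullin-RING ligase is built on a cullin scaffold, which holds a RING subunit at its C-terminal end and an adaptor with a substrate receptor at the other. The RING subunit recruits an E2 enzyme charged with ubiquitin, the receptor brings the protein to be marked, and attachment of NEDD8 to the cullin switches the assembly on. The APC/C is a large relative of these ligases, with its own cullin-like subunit, RING subunit and coactivators, and it marks cyclins and other mitotic proteins for destruction. Several of these genes are known in neuroblastoma and other tumors because their targets include cyclin E, MYC family proteins and NRF2.

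Of 9 neuroblastoma markers measured, 9 lay above the median level of all genes, and of 15 markers of fibroblasts, leukocytes, epithelium and endothelium 1 did (VWF). Median intensity ran from 55.9 to 131.8 over the arrays, and hybridisation controls, which were not used for the scaling, had mean log2 levels from 10.51 to 11.31, with the lowest in the IMR-32 400 nM arrays. Of the 42 ubiquitin ligase genes 41 had a mean above the same level, with ANAPC10 below it.

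On these genes 3 arrays stood apart from their labels. IMR-32 100 nM replicate 2 lay a median of 0.0585 on the log2 scale from IMR-32 DMSO replicate 1, while the 2 IMR-32 DMSO arrays lay 0.278 apart and the 2 IMR-32 100 nM arrays 1.06 apart. Kelly 100 nM replicate 2 lay 0.196 from Kelly 400 nM replicate 1 and 1.20 from its own duplicate. Kelly 400 nM replicate 2 lay 0.224 from Kelly 100 nM replicate 1 and 1.23 from its own duplicate. Over all 42 genes the median change from DMSO on replicates 1 and 2 was -0.35 and -1.64 in Kelly at 100 nM, -1.53 and -0.44 in Kelly at 400 nM, and -1.31 and -0.15 in IMR-32 at 100 nM. The 2 IMR-32 arrays at 400 nM lay close together, with -2.01 and -2.07. No array was moved to another group. Comparisons with these groups are given with all arrays and then without these 3, where each reduced group holds 1 array that was assumed to vary like the other groups. Since the 3 arrays were singled out by their values, also on these genes, counts without them describe the arrays that were kept and support no call.

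**Figure D1:**
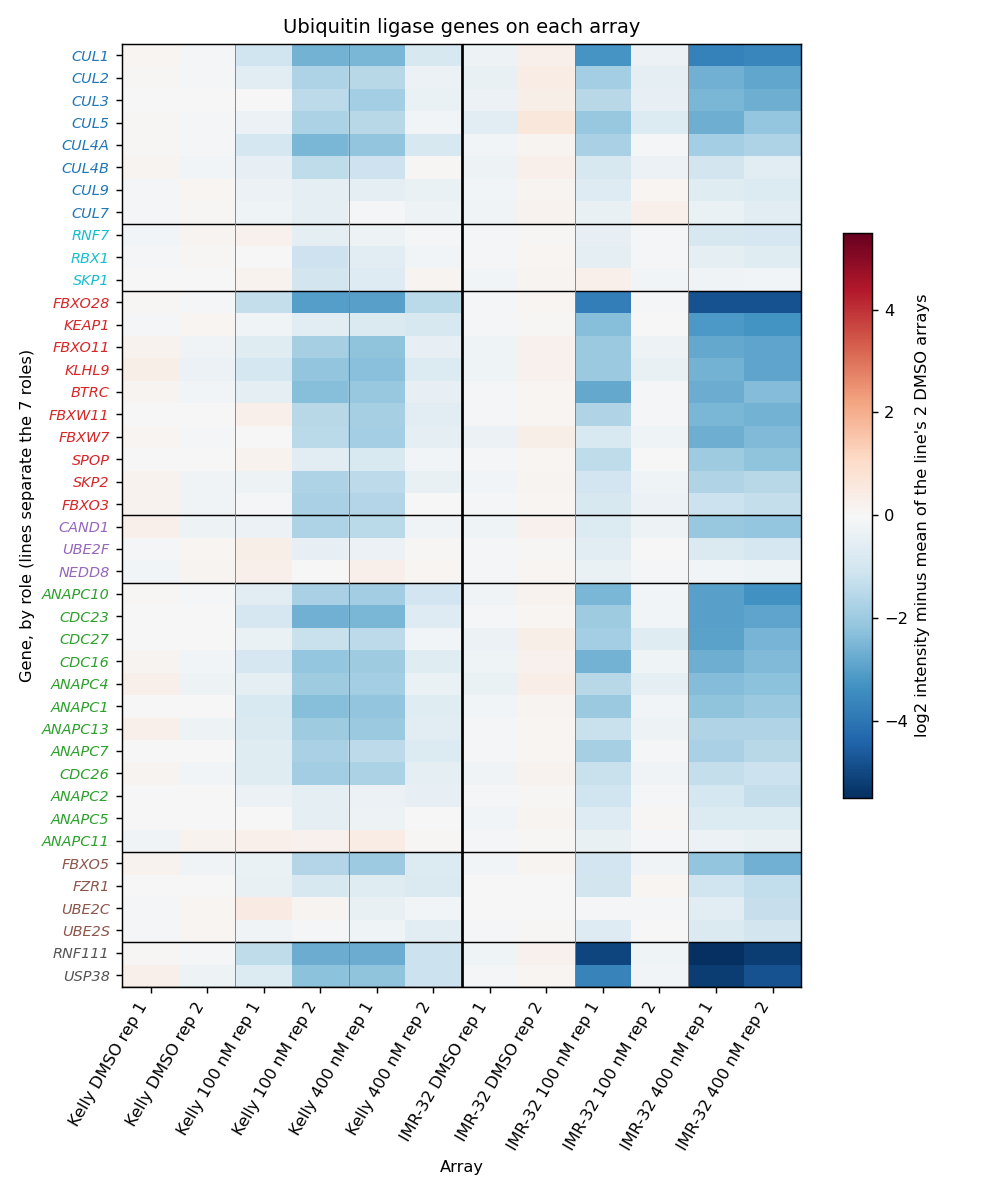
Color gives the log2 intensity minus the mean of the 2 DMSO arrays of the same line, for 42 genes (rows, grouped by role) on 12 arrays (columns). The second Kelly array at 100 nM looks like the first at 400 nM, and the second IMR-32 array at 100 nM looks like IMR-32 DMSO, while both IMR-32 400 nM arrays are lower than DMSO for 42 of 42 genes under the deposited scaling (13 of them turn positive under median centring and 13 under quantile normalization).

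In IMR-32 cells at 400 nM THZ531, 29 of 42 ubiquitin ligase genes fell and 0 rose (limma, Benjamini-Hochberg adjusted p under 0.05 over 18244 genes). Among all genes 39.0% fell and 0.395% rose. The median change was -2.10 for these genes against -0.67 for all genes, and both treated arrays lay below both DMSO arrays for 41 of 42 of them against 76.6% of all genes, with SKP1 the exception. The gap was narrower against better detected genes. With only genes above the median level of all probe sets tested, 32 of the 42 fell against 58.5% of such genes. The median change of such genes was -1.19. The falls were largest for RNF111, USP38 and FBXO28 and smallest, without passing the test, for SKP1, NEDD8 and ANAPC11. Leaving out any 1 of the 4 arrays of this comparison left 0 genes past the threshold, with 24 to 31 at an unadjusted p under 0.05. Centring each array on its median moved the median change of all genes from -0.67 to 0.52 and that of the 42 from -2.10 to -0.90, and then 19 of the 42 were lower and 2 higher, against 2639 and 5621 of all genes. Changes in the text are those of the deposited scaling, and in such bulk RNA less RNA per cell and fewer cells with the RNA cannot be told apart.

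By role, 8 of 10 substrate receptors fell (median -2.55), 4 of 8 cullin scaffolds (median -2.09), 9 of 12 APC/C core subunits (median -1.89) and 4 of 4 APC/C partners (median -1.07). Of the RING subunits and the SCF adaptor 1 of 3 fell (median -0.59), and of the genes of the NEDD8 cycle and cullin exchange 1 of 3 (median -0.86). Among all genes 39.0% fell, and 58.5% of genes above the median level of all probe sets. The counts of the scaffolds, the RING group and the NEDD8 group did not stand out from these shares. RNF111 and USP38, which belong to neither family, both fell (median -5.22). The median of the receptors was also below those of the scaffolds and the APC/C core under quantile normalization, with all probe sets averaged, with a pseudocount of 16 and without any 1 of the 4 arrays. Scaffolds and core changed order under quantile normalization (medians relative to all genes -0.80 and -0.90) and without DMSO replicate 2 (medians -1.70 and -1.76).

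**Figure D2:**
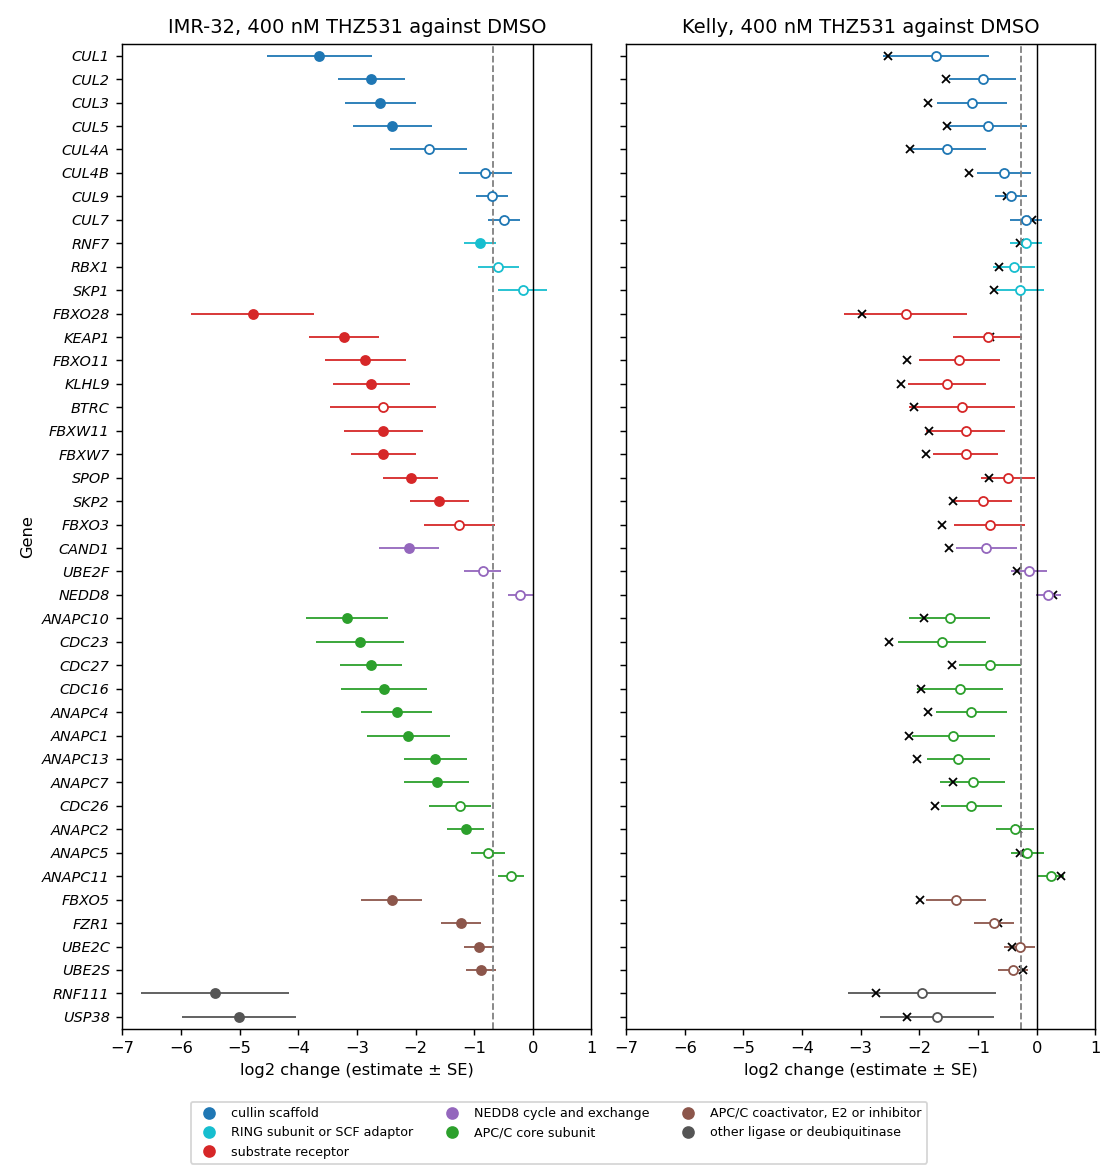
Each point is the log2 change (± SE) of a gene at 400 nM against DMSO in IMR-32 (left) and Kelly (right), filled where the gene passed the test. The dashed lines mark the median of all genes (-0.67 and -0.26), and crosses in the Kelly panel give the value without Kelly 400 nM replicate 2, which is lower for most genes; 13 IMR-32 changes turn positive under median centring and 13 under quantile normalization.

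Among the scaffolds, CUL1, which carries the SCF ligases, had the largest fall. Its intensity was 1040 and 1488 on the IMR-32 DMSO arrays, 131 and 1000 on those at 100 nM, and 95.7 and 104 on those at 400 nM. The 400 nM arrays were thus far below both DMSO arrays, a change of -3.64 ± 0.90 (adjusted p = 0.0194) or 12.5-fold. CUL2, the scaffold used by the VHL receptor, went from 575 and 988 in DMSO to 120 and 104, a change of -2.75 ± 0.57 (adjusted p = 0.0174). CUL3, which works with BTB-domain receptors, fell by 2.60 (SE 0.60), and CUL5, which works with SOCS-box receptors, fell by 2.39 (SE 0.67). The paralogs CUL4A and CUL4B, scaffolds of the DDB1 ligases, did not pass the test, with changes of -1.78 ± 0.65 (adjusted p = 0.0566) and -0.81 ± 0.46 (adjusted p = 0.184). CUL7 had the smallest change of the scaffolds, with 221 and 297 in DMSO and 200 and 167 at 400 nM (-0.49 ± 0.27), and its large relative CUL9 had -0.70 ± 0.27. CUL7, CUL9 and CUL4B had positive changes after median centring or quantile normalization.

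RBX1 and RNF7 are the paired RING subunits of the cullins, RBX1 for most of them and RNF7 mainly for CUL5. RNF7 went from 1227 and 1341 in DMSO to 706 and 674 at 400 nM and fell by 0.89 (SE 0.27, adjusted p = 0.0321). RBX1 had 2226 and 2658 in DMSO against 1682 and 1556 at 400 nM, a change of -0.59 ± 0.35 that did not pass. SKP1, the adaptor that joins F-box proteins to CUL1, had 1812 and 2205 in DMSO and 1727 and 1815 at 400 nM. The groups of SKP1 overlapped, and its change of -0.18 ± 0.41 was the smallest of all 42 genes. All 3 had positive changes under median centring and under quantile normalization.

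The substrate receptors showed the widest falls of the cullin genes. FBXO28, an F-box protein, read 804 and 935 on the DMSO arrays, 61.6 and 805 on those at 100 nM, and 31.5 and 31.6 on those at 400 nM. Its 400 nM values lay at the level of the background probe sets of the same arrays, whose mean was 32.3, so the change of -4.78 ± 1.05 (adjusted p = 0.0175) stands for a fall of at least 26.8-fold. KEAP1, the CUL3 receptor for NRF2, had 1046 and 1147 in DMSO and 124 and 111 at 400 nM, a change of -3.22 ± 0.59 (adjusted p = 0.0174) and 9.34-fold. FBXO3 changed least, with 357 and 414 in DMSO and 167 and 156 at 400 nM (-1.25 ± 0.60, not past the test). FBXO11, an F-box protein that targets BCL6, fell by 2.86 (SE 0.69) and KLHL9, a CUL3 receptor that acts on Aurora B in mitosis, by 2.76 (SE 0.66). FBXW7, the receptor for cyclin E and MYC proteins, fell by 2.55 (SE 0.56), and SPOP, a CUL3 receptor, fell by 2.09 (SE 0.46). SKP2, the receptor for p27, fell by 1.60 (SE 0.50). The paralogs FBXW11 and BTRC, which both recognise beta-catenin and I-kappa-B, had the same estimate of -2.55, with an SE of 0.67 for FBXW11 (adjusted p = 0.022) and of 0.90 for BTRC (adjusted p = 0.0505), so that the first passed and the second did not. The 2 genes were not tested against each other, so this does not show a difference between them. All 4 probe sets of each fell when every probe set was tested by itself. Their changes ran from -2.55 to -1.61 for BTRC and from -2.71 to -2.00 for FBXW11.

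Of the genes that load or recycle the cullins, CAND1, which exchanges substrate receptors, had 1298 and 1752 in DMSO and 358 and 341 at 400 nM, and fell by 2.11 (SE 0.52, adjusted p = 0.0192). UBE2F, a NEDD8 E2 enzyme that works with RNF7, had 998 and 1109 against 601 and 562 (-0.86 ± 0.31, adjusted p = 0.0541). NEDD8 itself had 4492 and 5280 in DMSO and 4333 and 4086 at 400 nM, a change of -0.21 ± 0.22. Neither UBE2F nor NEDD8 passed the test on the probe set given, and both turned positive under the 2 alternative scalings. Tested by themselves, 4 of the 7 probe sets of UBE2F fell and 0 of the 6 of NEDD8.

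In the APC/C core, ANAPC10, which helps to bind substrates, had 203 and 259 in DMSO and 28.6 and 22.6 at 400 nM. The 2 values at 400 nM were below the background probe sets of those arrays, and the change of -3.17 ± 0.69 (adjusted p = 0.0175) stands for at least 7.09-fold. CDC23, a scaffold subunit built of TPR repeats, had 1252 and 1487 in DMSO and 170 and 183 at 400 nM (-2.95 ± 0.75, adjusted p = 0.0208). The other TPR subunits CDC27, CDC16 and ANAPC7 fell by 2.76, 2.54 and 1.64. The probe set of CDC27 given here changed least of its 5, which all fell and ran from -4.03 to -2.76. ANAPC4 and ANAPC1, which form the platform, fell by 2.32 and 2.12, ANAPC13 by 1.66 and the cullin-like subunit ANAPC2 by 1.14. ANAPC11, the RING subunit, had 5781 and 6370 in DMSO and 4830 and 4569 at 400 nM, a change of -0.37 ± 0.23 that did not pass. CDC26 (-1.24 ± 0.53) and ANAPC5 (-0.77 ± 0.29) also did not pass. ANAPC2, ANAPC5, ANAPC11 and CDC26 were positive under at least 1 of the 2 alternative scalings.

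All 4 partners of the APC/C fell on the probe set that stands for them. FBXO5, its inhibitor known as EMI1, read 2779 and 3411 on the DMSO arrays, 1499 and 2708 on those at 100 nM, and 680 and 493 on those at 400 nM, a fall of 2.41 (SE 0.52, adjusted p = 0.0175). FZR1, the coactivator known as CDH1, had 171 and 178 in DMSO and 82.8 and 67.8 at 400 nM (-1.22 ± 0.34, adjusted p = 0.0252). UBE2C, the E2 enzyme that starts ubiquitin chains, had 8216 and 8060 in DMSO and 5506 and 3366 at 400 nM (-0.92 ± 0.26, adjusted p = 0.0266). UBE2S, the E2 enzyme that extends them, had 7436 and 7997 against 4486 and 3857 (-0.89 ± 0.26, adjusted p = 0.0274). Of the 4 probe sets of UBE2C 1 fell, the one given here, and the others had -0.49, -0.43 and -0.23 without passing the test. FZR1, UBE2C and UBE2S had positive changes under either median centring or quantile normalization, and FBXO5 did not.

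RNF111, a RING ligase of TGF-beta signaling also called Arkadia, read 917 and 1310 on the DMSO arrays, 33.6 and 935 on those at 100 nM, and 22.7 and 29.1 on those at 400 nM. Its change of -5.42 ± 1.26 (adjusted p = 0.0181) was the largest of the 42 and, since both 400 nM values lay under the background mean, stands for at least 33.9-fold. USP38, a deubiquitinase, read 535 and 608 on the DMSO arrays, 44.8 and 513 on those at 100 nM, and 15.2 and 20.4 on those at 400 nM (-5.02 ± 0.97, adjusted p = 0.0174, at least 17.6-fold). FBXO28, ANAPC10, RNF111 and USP38 were the 4 genes at or below the background mean on both 400 nM arrays, and 0 genes were so in any other group.

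**Figure D3:**
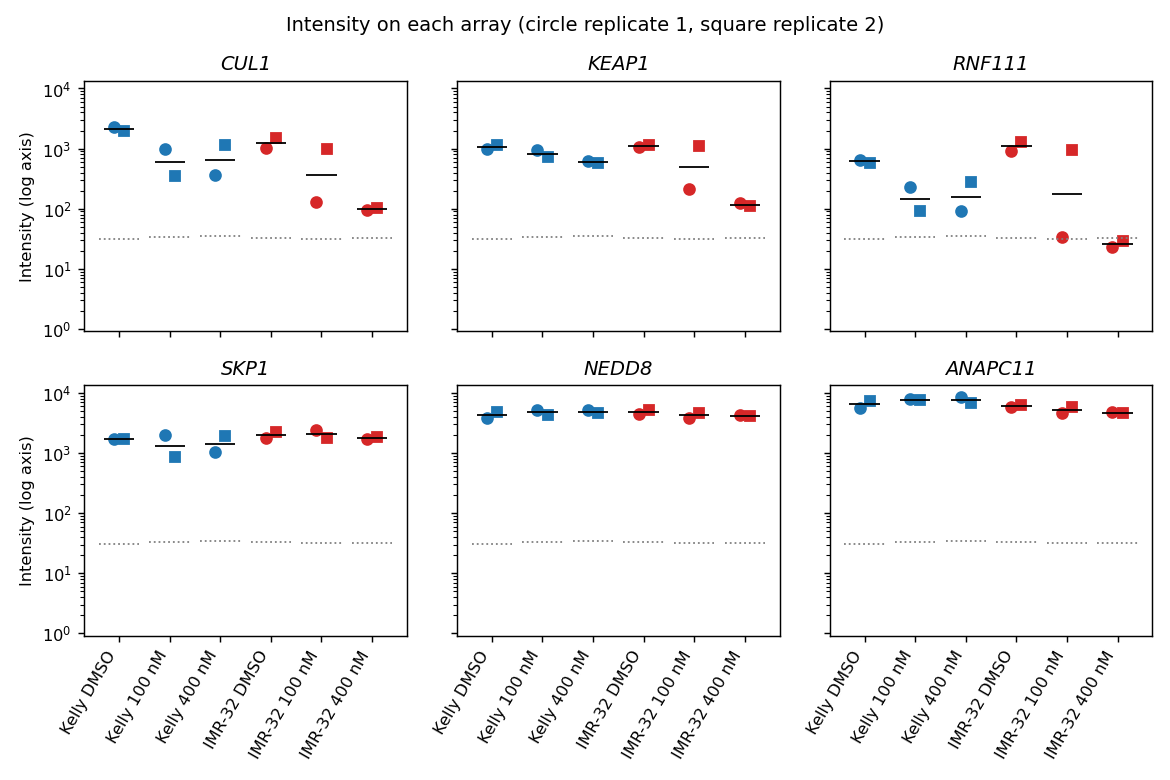
Intensity (log axis) of 6 genes in the 6 groups, with a circle for replicate 1, a square for replicate 2, a bar for the geometric mean and a dotted line for the mean of the background probe sets. RNF111 reached the dotted line at 400 nM in IMR-32 (22.7 and 29.1), while SKP1, NEDD8 and ANAPC11 stayed far above it in every group.

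The probe sets of a gene largely moved together in IMR-32 at 400 nM. Of the 139 probe sets, 137 had a negative change and 83 fell when each was tested by itself, against 36.6% of all probe sets with a single symbol. Of 34 genes with several probe sets, 32 had all of them on the same side. The 2 exceptions were CDC23, with changes from -2.95 to 0.13 over 4 probe sets, and FBXO11, with -2.86 to 0.04 over 9. The widest range was that of USP38, whose 3 probe sets had changes of -5.02, -4.21 and -0.24. The last of these had a mean log2 level of 4.34, under the background probe sets of the arrays (4.95 to 5.14). All 3 probe sets of RNF111 fell (-5.42, -4.49 and -2.69). Some genes that did not pass above had probe sets that fell in this test. They were BTRC (4 of 4), UBE2F (4 of 7), FBXO3 (2 of 8), ANAPC11 (1 of 5) and ANAPC5 (1 of 2).

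Promoter sequence is shown for the 3 genes with the largest falls and the 2 with the smallest changes, since these ends of the range came from the same arrays. RefSeq gave a window of 300 bases around the start of 38 of the 42 genes (GRCh38.p14), and BTRC, CUL7, FBXO3 and UBE2C had none. Capitals mark matches, on either strand, to 9 motifs: the CCAAT box (CCAAT), the ETS site (CCGGAAG), the cell cycle homology region or CHR (TTTGAA), YY1, E2F (TTTCCCGC and TTTGGCGC), NRF1, CRE (TGACGTCA) and the GC box (GGGGCGGGG). No 2 matches overlap in the windows shown.
RNF111 (chr15:58987413-58987712, plus strand): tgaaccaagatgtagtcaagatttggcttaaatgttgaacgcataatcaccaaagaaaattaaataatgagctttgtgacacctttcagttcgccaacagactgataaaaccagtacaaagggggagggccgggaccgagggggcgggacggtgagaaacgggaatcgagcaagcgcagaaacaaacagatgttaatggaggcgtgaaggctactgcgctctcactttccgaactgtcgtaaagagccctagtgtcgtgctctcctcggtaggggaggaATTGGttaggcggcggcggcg
USP38 (chr4:143184667-143184966, plus strand): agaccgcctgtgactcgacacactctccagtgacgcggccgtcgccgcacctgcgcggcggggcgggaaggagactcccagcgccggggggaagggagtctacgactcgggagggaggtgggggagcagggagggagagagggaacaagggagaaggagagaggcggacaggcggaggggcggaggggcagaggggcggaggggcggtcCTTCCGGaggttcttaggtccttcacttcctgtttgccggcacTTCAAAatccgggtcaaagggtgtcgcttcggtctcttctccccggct
FBXO28 (chr1:224113861-224114160, plus strand): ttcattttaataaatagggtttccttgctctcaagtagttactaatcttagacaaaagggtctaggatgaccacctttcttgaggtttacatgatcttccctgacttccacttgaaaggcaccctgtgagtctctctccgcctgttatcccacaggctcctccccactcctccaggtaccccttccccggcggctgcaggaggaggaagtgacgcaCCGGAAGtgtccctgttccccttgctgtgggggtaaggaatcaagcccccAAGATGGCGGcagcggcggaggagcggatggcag
SKP1 (chr5:134176901-134177200, minus strand): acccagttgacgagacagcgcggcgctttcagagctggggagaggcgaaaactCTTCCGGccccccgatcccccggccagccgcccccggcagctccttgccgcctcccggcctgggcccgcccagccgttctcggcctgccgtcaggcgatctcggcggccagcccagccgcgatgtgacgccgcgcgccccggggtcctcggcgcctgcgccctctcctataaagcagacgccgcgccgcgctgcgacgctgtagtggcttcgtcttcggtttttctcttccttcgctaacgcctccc
NEDD8 (chr14:24232318-24232617, minus strand): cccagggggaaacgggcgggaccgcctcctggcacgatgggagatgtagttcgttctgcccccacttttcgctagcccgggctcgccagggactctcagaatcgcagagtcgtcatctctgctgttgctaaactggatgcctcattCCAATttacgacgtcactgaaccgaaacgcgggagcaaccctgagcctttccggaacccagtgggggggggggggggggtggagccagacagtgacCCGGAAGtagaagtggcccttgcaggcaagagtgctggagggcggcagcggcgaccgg

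The 5 windows did not sort by the size of the change. An ETS match stood in USP38 and FBXO28, which were among the largest falls, and also in SKP1 and NEDD8, which changed least. RNF111, with the largest fall, had no ETS match. A CCAAT box stood in RNF111 and NEDD8. Over the 38 windows, 13 (34.2%) held the ETS letters against 10.3% of 35116 RefSeq windows and 14.6% of the 14494 windows of measured genes. In the same order of all windows and measured genes, the GC box was in 9 (23.7%) against 15.7% and 23.1%, close to the measured genes. The CCAAT box was in 12 (31.6%) against 34.6% and 36.4%, and the CHR in 6 (15.8%) against 15.2% and 12.1%. The E2F form TTTCCCGC was in 3 (7.89%) against 1.63% and 2.23%, and the CRE in 3 (7.89%) against 1.85% and 2.63%. The YY1 site was in 1 (2.63%) against 1.20% and 2.02%, the form TTTGGCGC in 0 against 0.652% and 0.890%, and NRF1 in 0 against 1.24% and 1.82%. The median GC content was 65.3% over these windows and 58.7% over all windows, and its part in the shares was not tested.

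Changes in IMR-32 at 400 nM were also set against the span of each gene, which ran from 4.31 kb (UBE2C) to 215.5 kb (FBXW7) in the RefSeq annotation of GRCh38.p14. Spearman's rho was -0.46 over the 42 genes, which share the same arrays and are not independent. With the mean level of each gene over the 12 arrays in place of its span, rho was 0.435. That mean includes the treated arrays, so a gene that fell also has a lower level. This rho therefore cannot show whether genes brighter in DMSO changed less. The shares of span and level were not tested. In Kelly at 400 nM rho with span was -0.347. The 14 shortest genes (4.31 to 25.7 kb) had a median change of -1.03, and 9 of them fell. The 14 genes of 28.0 to 58.9 kb had a median of -1.62, and 8 fell. The 14 longest (71.6 to 215.5 kb) had a median of -2.58, and 12 fell. Among all genes of any span 39.0% fell, and 58.5% of those above the median level of all probe sets. Exceptions stood at both ends: KLHL9 (5.74 kb) and KEAP1 (17.2 kb) fell by 2.76 and 3.22, while UBE2F (75.8 kb) had -0.86 without passing. The case of UBE2F depends on the probe set, since 4 of its 7 fell when tested by themselves, the lowest at -1.61.

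**Figure D4:**
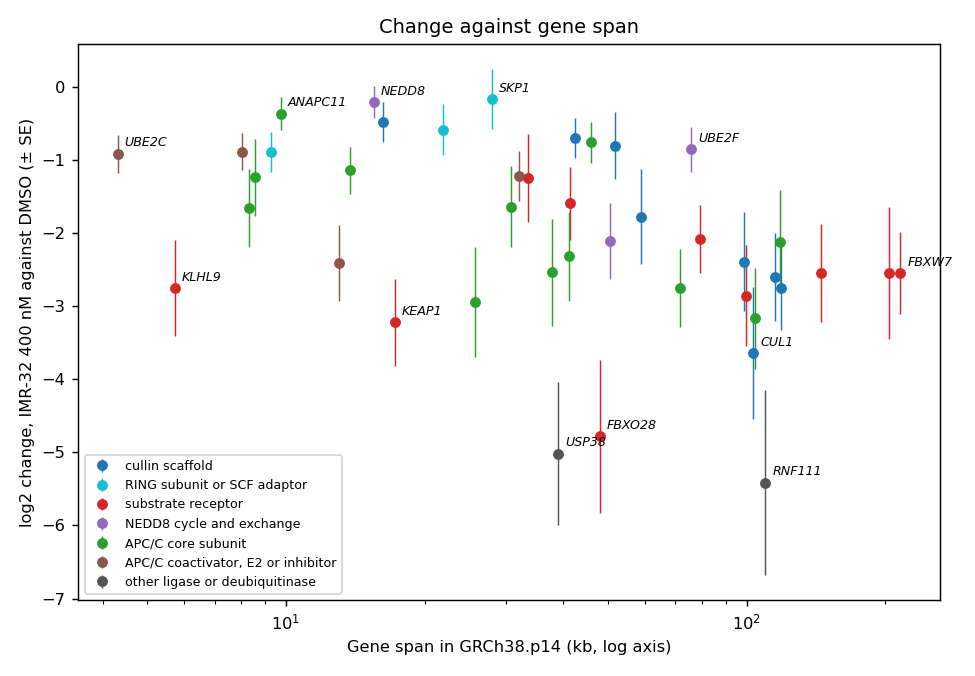
Log2 change (± SE) at 400 nM in IMR-32 against gene span (kb, log axis) for the 42 genes, colored by role. The longest genes lie lower in the plot (median -2.58 against -1.03 for the shortest), with KLHL9 and KEAP1 as short genes that fell.

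In Kelly cells at 400 nM, 0 of 42 ubiquitin ligase genes passed the test, as did 0% of all genes (smallest adjusted p 0.503), with 4 of the 42 lower at an unadjusted p under 0.05. Of the 42 changes 40 were negative, with a median of -0.92 against -0.26 for all genes. Genes above the median level of all probe sets had a median of -0.53. Both treated arrays lay below both DMSO arrays for 34 of 42, against 48.8% of all genes. FBXO28 had the most negative change in Kelly, reading 623 and 579 on the DMSO arrays, 243 and 74.0 on those at 100 nM, and 76.5 and 213 on those at 400 nM (-2.24 ± 1.05). RNF111 read 647 and 581 on the DMSO arrays, 230 and 92.4 on those at 100 nM, and 92.1 and 274 on those at 400 nM (-1.95 ± 1.26). CUL1 read 2283 and 1976 on the DMSO arrays, 980 and 355 on those at 100 nM, and 367 and 1141 on those at 400 nM (-1.71 ± 0.90). These genes thus had treated values below DMSO on all 4 arrays, with 1 low and 1 intermediate array at each dose.

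Other genes changed less in Kelly, and some overlapped with DMSO. KEAP1 had 991 and 1144 in DMSO and 616 and 579 at 400 nM (-0.83 ± 0.59). SKP1 had 1722 and 1743 against 1049 and 1947 (-0.28 ± 0.41), with its 400 nM arrays on either side of DMSO. NEDD8 had 3821 and 4744 in DMSO and 5142 and 4641 at 400 nM (0.20 ± 0.22), and ANAPC11 had 5679 and 7379 against 8608 and 6786 (0.24 ± 0.23), the 2 positive changes of this comparison. Among the APC/C partners, FBXO5 had 1848 and 1403 in DMSO and 406 and 943 at 400 nM (-1.38 ± 0.52), and UBE2C had 5788 and 6616 against 4645 and 5543 (-0.29 ± 0.26).

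Without the 3 arrays that stood apart, the Kelly 400 nM group held replicate 1 alone, and 31 of 42 genes were lower against 33.4% of all genes. These were 10 of 10 receptors, 9 of 12 APC/C core subunits, 6 of 8 scaffolds and RNF111 and USP38, with 2 of 4 APC/C partners, 1 of 3 of the RING group and 1 of 3 of the NEDD8 group. FBXO28 had -2.97 in that fit, RNF111 -2.73, CUL1 -2.53, CDC23 -2.52 and KEAP1 -0.79. With only Kelly 400 nM replicate 2 left out and all other arrays kept, 0 genes passed and the median was -1.53, and with only replicate 1 left out 0 passed and the median was -0.44. In IMR-32 at 400 nM the fit without the 3 arrays called 38 of 42 lower against 57.9% of all genes.

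At 100 nM, 0 of 42 genes passed in either line with all arrays, as did 0% of all genes (smallest adjusted p 0.465 in IMR-32 and 0.427 in Kelly, with 1 and 5 of the 42 lower at an unadjusted p under 0.05). The median change was -0.73 in IMR-32 (all genes -0.30) and -0.96 in Kelly (all genes -0.33). Genes above the median level of all probe sets had medians of -0.52 in IMR-32 and -0.45 in Kelly. Both treated arrays lay below both DMSO arrays for 20 of 42 genes in IMR-32, against 27.0% of all genes, and for 28 of 42 in Kelly, against 53.6%. ANAPC11 and UBE2C lay above both DMSO arrays on both Kelly 100 nM arrays, as did 5.66% of all genes. Without the 3 arrays, 34 of 42 were lower in IMR-32 against 43.3% of all genes, and 5 of 42 in Kelly against 3.97%. Those 5 were CUL1, CUL4A, FBXO28, CDC23 and RNF111, with FBXO28 at -1.30 and RNF111 at -1.41. The 2 doses of a line share their DMSO arrays.

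The doses were also compared directly. Between 400 and 100 nM, 0 of 42 genes passed in IMR-32 (0.00548% of all genes) and 0 in Kelly (0%), with medians of -1.01 and 0.06 and with 17 and 0 genes lower at an unadjusted p under 0.05. The direction in Kelly turned with the array left out, with a median of 0.59 without 100 nM replicate 1, 0.51 without 400 nM replicate 1, -0.55 without 100 nM replicate 2 and -0.51 without 400 nM replicate 2, and 0 genes passed in each. In IMR-32, 24 genes were lower without 100 nM replicate 1, against 32.6% of all genes, and 0 without 100 nM replicate 2.

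The difference between the lines at 400 nM (IMR-32 minus Kelly) was tested for each gene. It passed for 0 of 42 (0% of all genes, smallest adjusted p of the 42 genes 0.449, with 4 at an unadjusted p under 0.05). The 4 smallest p-values were those of KEAP1 (-2.39 ± 0.84), CDC27 (-1.97 ± 0.75), SPOP (-1.59 ± 0.65) and USP38 (-3.32 ± 1.37). KEAP1 lay between 579 and 616 at 400 nM in Kelly and between 111 and 124 in IMR-32, from like levels in DMSO. With both lines averaged, 32 of 42 genes fell at 400 nM and 0 rose, against 38.4% and 0.444% of all genes, with a median of -1.56 (all genes -0.45). With only genes above the median level of all probe sets tested, 58.6% of such genes fell, with a median of -0.88. The count of 32 did not hold for most choices of the array left out. With 1 array left out, the median of the 42 ran from -1.91 to -1.24 (all genes -0.51 to -0.40).

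In DMSO, 0 of 42 genes differed between Kelly and IMR-32, where 3.02% of all genes were lower and 1.98% higher in Kelly (1 of the 42 higher at an unadjusted p under 0.05). RNF7 had the smallest p, with 1883 and 2318 in Kelly and 1227 and 1341 in IMR-32 (0.70 ± 0.27, adjusted p = 0.238). FBXW7 followed with 287 and 242 in Kelly against 472 and 720 in IMR-32 (-1.14 ± 0.56, adjusted p = 0.383). Both pairs of arrays were separate.

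Other genes of the same pathways were counted in IMR-32 at 400 nM, where 39.0% of all genes fell. With only genes above the median level of all probe sets tested, the share was 58.5%. Of the machinery that acts on cullins, 8 of 8 genes of NEDD8 conjugation and the DCN1 family fell, among them DCUN1D5 (-3.46 ± 0.81), which promotes neddylation, and SENP8 (-1.83 ± 0.41), which processes NEDD8. Of the COP9 signalosome, which removes NEDD8 from cullins, 5 of 10 fell, with COPS2 at -1.85 and COPS7B at -1.12. Among receptors, 34 of 55 other F-box genes fell (CCNF -3.30, FBXO31 -2.45), as did 20 of 27 CUL4 adaptors and receptors (GRWD1 -2.59, AMBRA1 -1.80), 24 of 39 CUL2 and CUL5 adaptors and receptors (RAB40C -1.87, CISH -1.79) and 23 of 53 BTB and Kelch genes (KLHL18 -3.13, KLHL20 -2.09).

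On the side of the targets, 18 of 22 genes whose proteins the APC/C marks fell, with KIF11, a mitotic kinesin, at -3.62 and AURKA, a mitotic kinase, at -3.40. Of genes whose proteins SCF ligases mark, 15 of 29 fell and 1 rose, with CDC25A, a cell cycle phosphatase, at -3.34 and CCNE1, cyclin E1, at -2.40. Of other APC/C and spindle checkpoint genes 7 of 12 fell (TTK -3.19, MAD2L1BP -2.70), of ubiquitin E1 and E2 genes 17 of 26 (UBE2O -2.15, CDC34 -1.97) and of other USP deubiquitinases 28 of 47 (USP42 -3.41, USP36 -2.34). In Kelly at 400 nM 0 genes of these 11 lists passed, and their medians ran from -1.04 to -0.36.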

How the data were processed

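The authors deposited 1 linear intensity per probe set and array. The submitters' processing notes name MAS5, the affy package and R 3.1.3, and the published methods describe intensities adjusted for cell number and renormalized by a loess curve on ERCC spike-ins, so that levels depend on those spike-ins. Intensities were log2 transformed with no pseudocount and no filter. Symbols came from the platform annotation, and 1333 probe sets with several symbols were not used.

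All 12 arrays were fitted with limma 3.58.1 (lmFit, eBayes) in R 4.3.3, with 6 group means, 6 residual and 2.85 prior degrees of freedom, and two-sided p-values of each contrast were adjusted by Benjamini-Hochberg across the 18244 genes, with calls at 0.05. The fit was tested on simulated data. The 2 arrays per group limit the precision, and p-values measure only the spread between these arrays, which may be technical. FBXW7 was named for the comparison of the lines in DMSO as 1 of the 2 smallest p-values.

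The genes and lists were chosen with earlier results of these data known. Array values are given for the 2 most and the 1 least negative genes of each role in IMR-32 at 400 nM (all of small roles), and 2 genes are named per other list. Gene spans, promoters and their build came from RefSeq (GRCh38.p14). Alternatives were other scalings, probe set choices, fits and arrays left out. Leaving out 3 arrays together and crossing replicate numbers were chosen after seeing the data.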

Additional observations from a re-analysis of the deposited data

Results flagged for a closer look

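At 100 nM, 3 genes lay above the mean of the DMSO arrays on both Kelly arrays and below it on both IMR-32 arrays, and none of the 3 passed the limma test at 100 nM in either line. ANAPC11 had changes of 0.27 and 0.23 in Kelly and -0.40 and -0.06 in IMR-32 (IMR-32 minus Kelly -0.48). UBE2C had 0.45 and 0.13 in Kelly against -0.08 and -0.11 in IMR-32 (-0.38). NEDD8 had 0.27 and 0.04 against -0.35 and -0.05 (-0.36). The 100 nM values of NEDD8 overlapped with DMSO in both lines and those of ANAPC11 in IMR-32, and these differences between the lines were not tested. With 2 arrays a group, single arrays could not be tested as outliers.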

How the results depend on the processing

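Leaving out single arrays and changing the scaling both moved the counts. In IMR-32 at 400 nM, 19 genes were lower and 2 higher (SKP1, NEDD8) after median centring, and 16 lower and 1 higher (CUL7) after quantile normalization. For the mean of both lines, median centring gave 23 lower and 3 higher (16.7% and 37.3% of all genes). Quantile normalization gave 17 lower and 1 higher there (13.7% and 14.2%). Under median centring 13 genes turned positive in IMR-32 at 400 nM: SKP1 1.02, NEDD8 0.98, ANAPC11 0.82, CUL7 0.71, RBX1 0.61, CUL9 0.49, ANAPC5 0.43, CUL4B 0.39, UBE2F 0.34, UBE2S 0.30, RNF7 0.30, UBE2C 0.28 and ANAPC2 0.0493. Under quantile normalization 13 did: CUL7 1.00, CUL4B 0.64, SKP1 0.64, CUL9 0.60, UBE2F 0.41, ANAPC2 0.31, RNF7 0.30, NEDD8 0.28, FBXO3 0.27, RBX1 0.19, CDC26 0.12, ANAPC11 0.0537 and FZR1 0.0287. In Kelly at 400 nM, median centring gave UBE2F 0.35, RNF7 0.31, CUL7 0.31, SKP1 0.20, UBE2C 0.20, RBX1 0.0921 and UBE2S 0.0762, and quantile normalization gave CUL7 0.48, UBE2F 0.47, RNF7 0.17 and SKP1 0.11.

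Without the 3 arrays that stood apart, the genes lower were 34 in IMR-32 at 100 nM (43.3% of all genes), 31 in Kelly at 400 nM (33.4%), 5 in Kelly at 100 nM (3.97%), 9 and 25 between the doses in IMR-32 and Kelly (5.84% and 20.6%), and 9 for the difference between the lines (14.1%). In Kelly the dose comparison then sets the less changed 100 nM array against the more changed 400 nM array. In DMSO 13 were lower and 2 higher in Kelly (19.0% and 7.22% of all genes). With only the arrays of the comparison, 6 passed for the difference between the lines (11.4% of all genes), and 12 lower and 2 higher in DMSO (18.4% and 6.55%). Quantile normalization gave 0 lower and 1 higher in DMSO (4.82% and 4.68% of all genes). Testing every probe set gave 83 of 139 lower, against 36.6% of all probe sets with a single symbol.

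Leaving out 1 array gave 0 lower in each case for IMR-32 at 400 nM, 0 to 15 for IMR-32 at 100 nM (15 without 100 nM replicate 2), 0 to 31 for the mean of both lines (31 without Kelly 400 nM replicate 2) and 0 to 24 for 400 against 100 nM in IMR-32 (24 without 100 nM replicate 1). In Kelly at 400 nM the change ran from -0.72 to 0.17 for SKP1, -1.61 to 0.0133 for FBXO3 and -0.33 to 0.0702 for UBE2F, positive without replicate 1. The cause of these shifts was not tested.

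The replicate numbers share no batch in the labels. With the replicate block 24 genes were lower in IMR-32 at 400 nM, against 31.7% of all genes (39.0% without the block). RNF7, SKP2, ANAPC1, ANAPC13 and UBE2S no longer passed there. For the mean of both lines 27 were lower, against 32.2% of all genes (38.4% without the block). In the other comparisons 0 of the ubiquitin ligase genes passed. With the numbers of Kelly 400 nM crossed (Kelly 400 nM deviated from DMSO by number with a correlation of -0.305 and from 100 nM with -0.781), 0 genes passed at 400 nM. Signal over background limits FBXO28, ANAPC10, RNF111 and USP38 at 400 nM.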
